A study of Caenorhabditis elegans with 2 samples.

Results

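The cuticle collagen genes of Caenorhabditis elegans were examined for promoter binding by FOS-1, a basic leucine zipper transcription factor of the Fos family. They were taken by name, as protein-coding genes called col- with a number or as 1 of 19 genes named for a body shape, rolling or blister phenotype. This gave 175 of the 19985 protein-coding genes of the annotation, 156 col- genes and all 19 phenotype-named genes. Chromatin immunoprecipitation and sequencing (ChIP-seq) had been run on first-stage (L1) larvae of strain OP304, whose genotype is unc-119(ed3) III; wgIs304. In this strain fos-1 fused to eGFP sits on the integrated transgene wgIs304, so the tagged protein comes from a transgene in a strain with the unc-119(ed3) allele, and its expression relative to the native gene is not given. There was 1 group of 2 biological replicates from separate biosamples, each of whole larvae of both sexes, so the epidermis that makes the cuticle was 1 tissue among many. Mock immunoprecipitations and untagged worms were not analysed here.

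The cuticle is a layered collagen coat made by the underlying epidermis, and a new one is built before each moult. Its collagens are short triple-helical proteins of repeated Gly-X-Y triplets, encoded by a large family of small genes, many of which are switched on in pulses during each moulting cycle. Prolyl hydroxylation, disulfide bonding, export by COPII vesicles and proteolytic trimming precede their cross-linking in the cuticle. Fos proteins bind DNA as dimers, commonly with Jun, and their classical AP-1 site is TGACTCA.

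The collagen part of the label was checked against the coding sequences of the reference genome. In 174 of the 175 genes the longest coding sequence held at least 20 Gly-X-Y triplets in runs, with a median of 51 triplets in a median of 304 residues. The shortest of the family, col-55, held 20. The exception was col-17, whose annotated reading frame had 0, and it was kept because the genes were chosen by name. The promoter windows of 4 pairs overlapped each other (col-3 with col-117, col-50 with col-51, col-159 with col-160 and col-183 with col-184), so the 175 windows formed 171 separate places.

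Binding is known here only through lists of peaks deposited by the authors in build ce11. The list of replicate 1 held 29801 entries, that of replicate 2 held 23483 and that of the pooled reads 20363, all described as peaks and background. The strictest list came from the irreproducible discovery rate (IDR) procedure, a measure of how alike both replicates rank a peak. It held the 1895 pooled entries of highest signal, from 42.5 upward. The signal value is the authors' own and its scaling is not stated, so values rank entries within a list and are not compared between lists. Read depth is unknown, and a gene without a peak is described as not listed, which is not a measure of absent binding. A summit, the highest point of an entry, was given to a gene when it lay in the promoter window, which reached 1000 bp before and 200 bp past the annotated 5' end.

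A minority of the collagen genes carried a FOS-1 summit, and the phenotype-named collagens carried none in the pooled list. In the IDR list 7 of 175 genes had one (4.0%, 95% Clopper-Pearson interval 1.62 to 8.07%), beside 7.65% of all protein-coding genes, a share inside that interval. In the pooled list 32 genes had one (18.3%, interval 12.9 to 24.8%), beside 32.8% of all protein-coding genes, which lay above the interval. All 7 and all 32 were col- genes. The place of the all-gene share beside the IDR interval depended on the window: with 500 bp before and 100 bp past the 5' end the IDR count was 4 (2.29%, interval 0.626 to 5.75%), beside 6.11% of all genes, which lay above it. The pooled count was then 20 (11.4%, interval 7.12 to 17.1%), beside 23.8%. When each summit went only to the nearest 5' end of any gene type within 2000 bp, 2 collagen genes had an IDR summit (1.14%, interval 0.139 to 4.07%), beside 5.45% of all genes, and neither was among the 7. Groups of genes were not tested against each other, and the intervals cover counting error only.

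The replicates gave alike shares, though only in part from the same genes. Replicate 1 listed a summit in 44 collagen windows (25.1%, interval 18.9 to 32.2%), beside 40.7% of all protein-coding genes. Replicate 2 listed one in 45 (25.7%, interval 19.4 to 32.9%), beside 34.8% of all genes. The mean over both was 25.4 ± 0.404% (SD, n = 2), and in each replicate the share of all genes lay above the collagen interval. With the 1895 entries of highest signal alone, 7 windows in replicate 1 (4.0%, beside 7.35% of all genes) and 8 in replicate 2 (4.57%, beside 7.37%) held a summit, a mean of 4.29 ± 0.404% (SD, n = 2).

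A pooled promoter entry overlapped by an entry in both replicate lists was found at 22 genes (12.6%, interval 8.05 to 18.4%), beside 21.4% of all protein-coding genes. At least 1 of the 4 lists held a summit for 68 genes (38.9%, interval 31.6 to 46.5%), beside 52.2% of all genes, and 107 genes were in none.

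**Figure D1:**
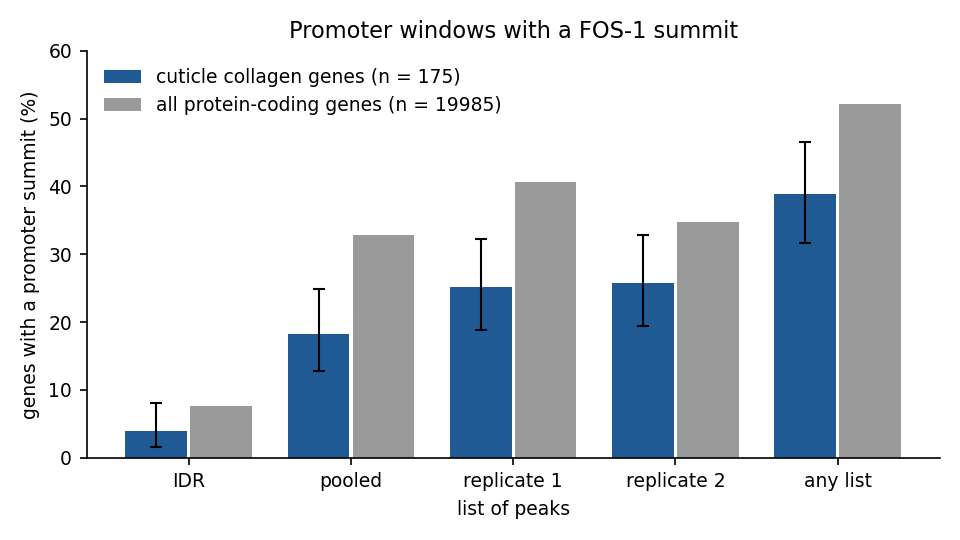
Percentage of genes with a FOS-1 summit in the promoter window, for the 175 cuticle collagen genes and all 19985 protein-coding genes, in the IDR list, the pooled list, each replicate list and any of the 4. Error bars are 95% Clopper-Pearson intervals of the collagen shares; the share of all genes lies above the interval in every list but the IDR list, where 4.0% stands beside 7.65%.

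The phenotype-named genes are the collagens whose loss or alteration visibly changes the animal. In the IDR and pooled lists 0 of 19 had a promoter summit, which with so few genes allows a share of up to 17.6%. All protein-coding genes had 7.65% and 32.8%, and the col- genes had 7 and 32 of 156 (20.5% in the pooled list). Replicate 1 listed 3 of the 19 (15.8%, beside 40.7% of all genes) and replicate 2 listed 4 (21.1%, beside 34.8%), with no gene in common. At least 1 of the 4 lists held 7 of the 19 (36.8%, interval 16.3 to 61.6%), beside 52.2% of all genes. The col- genes had 41 of 156 in each replicate.

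The 6 furrow collagens, dpy-2, dpy-3, dpy-7, dpy-8, dpy-9 and dpy-10, form the circumferential furrows of the cuticle. Their loss gives short, fat (dumpy) worms. Of these 6, 3 were listed (50%, interval 11.8 to 88.2%), each in a single replicate, beside 52.2% of all genes in any of the 4 lists. The window of dpy-10 had an entry with a signal of 10.1 in replicate 1 (rank 13283, 289 bp upstream). That of dpy-9 had 8.19 in replicate 1 (rank 20265, 652 bp upstream). That of dpy-8 had 11.3 in replicate 2 (rank 4689, 309 bp upstream). All 3 ranked below the 1895 highest entries of their replicate. The window of dpy-7, a marker gene of the larval epidermis, was in no list, and its nearest pooled summit lay 24505 bp away, the longest such distance in the family. The strut collagens bli-1 and bli-2, needed for the struts that join the layers of the adult cuticle, were also in no list.

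Of the other 11 body-shape collagens, 4 were listed in 1 replicate each (36.4%, interval 10.9 to 69.2%), beside 52.2% of all genes in any of the 4 lists. SQT-1, a collagen in which different mutations give rolling or dumpy worms, had an entry of signal 5.97 in replicate 2 (rank 22578, 137 bp downstream of the 5' end). The window of rol-8 had 6.16 in replicate 2 (rank 21304, 932 bp upstream). That of dpy-5 had 8.46 in replicate 2 (rank 10186, 109 bp downstream) and that of sqt-2 had 7.02 in replicate 1 (rank 26490, 666 bp upstream). The windows of dpy-4, dpy-13, dpy-14, dpy-17, lon-3, rol-6 and sqt-3 were in no list. Loss of lon-3 gives long worms, a dominant allele of rol-6 is the common rolling marker of transgenesis, and dpy-17 and sqt-3 act together in collagen secretion. The window of col-99, a collagen with a transmembrane segment, was in no list either.

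The 150 bp before the annotated 5' ends of rol-6 (II:8732900-8733049), sqt-3 (V:12352595-12352744) and dpy-17 (III:5107180-5107329) are shown as examples of unlisted promoters. All are on the plus strand of WBcel235 (ce11), 5′ to 3′, and capitals mark a TGATAA or TATAAA string read on either strand.
rol-6: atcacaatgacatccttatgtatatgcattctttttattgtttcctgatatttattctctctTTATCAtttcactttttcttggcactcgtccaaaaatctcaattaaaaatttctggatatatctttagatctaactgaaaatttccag
sqt-3: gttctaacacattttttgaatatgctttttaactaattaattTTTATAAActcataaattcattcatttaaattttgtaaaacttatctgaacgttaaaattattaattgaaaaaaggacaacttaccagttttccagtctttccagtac
dpy-17: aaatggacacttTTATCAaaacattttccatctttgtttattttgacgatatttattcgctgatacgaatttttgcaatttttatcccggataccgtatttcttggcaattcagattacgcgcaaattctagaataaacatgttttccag
The rol-6 and dpy-17 stretches each held TGATAA, the core of many GATA-factor sites, and the sqt-3 stretch held TATAAA, the TATA-box string. The nearest pooled summit lay 1801 bp from the 5' end of rol-6, 9002 bp from that of sqt-3 and 1621 bp from that of dpy-17.

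The strongest peaks in collagen promoter windows stood at the col- genes col-38, col-2, col-71, col-63, col-185, col-8 and col-147, which encode cuticle collagens. Their pooled signals ran from 98.8 down to 42.6, beside a median of 63.6 over the IDR list. All 7 were overlapped by an entry in each replicate list. Each had another gene nearby: in 4 of the 7 (col-38, col-2, col-71 and col-8) the 5' end of another protein-coding gene was nearer to the summit than that of the collagen, and in 0 of the 7 was the collagen's own 5' end the nearest of any gene type. Over all protein-coding genes the gene's own 5' end was the nearest protein-coding one in 71.7% of 1563 pairs of a gene and an IDR peak, and the nearest of any type in 59.9% of them.

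The col-38 peak (II:8569372-8569711) had a pooled signal of 98.8 (rank 391), with 55.4 in replicate 1 (rank 504) and 42.9 in replicate 2 (rank 306). Its summit was 454 bp upstream of col-38, in exons of the non-coding RNA genes F54C9.16 and F54C9.17, and 385 bp from the 5' end of rpl-5, a gene of the large ribosomal subunit that runs the other way. The col-2 peak (IV:10085715-10086054) had a pooled signal of 77.3 (rank 645), with 48.8 in replicate 1 (rank 665) and 28.8 in replicate 2 (rank 725), and its intergenic summit was 434 bp upstream of col-2 and 252 bp from ndc-80, which encodes a kinetochore subunit. Both peaks were among the 1895 highest entries of each replicate. The col-71 peak (II:3502669-3503008) had a pooled signal of 74.4 (rank 701), with 45.8 in replicate 1 (rank 754) and 27.6 in replicate 2 (rank 800), at an intergenic summit 269 bp upstream of col-71 and 129 bp from Y49F6B.2. The col-147 peak (V:9633375-9633714), the weakest of the 7, had a pooled signal of 42.6 (rank 1885), with 18.9 in replicate 1 (rank 3637) and 22.8 in replicate 2 (rank 1098). Its intergenic summit was 207 bp upstream of col-147, the nearest protein-coding gene, and 171 bp from the 5' end of T06E4.17. Here the replicates ranked the peak apart, inside the 1895 highest entries in replicate 2 and outside them in replicate 1.

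The 101 bp centred on the summit are printed for these 4 peaks. They are the 3 of highest signal among the 7 and the 1 closest to its collagen's 5' end. They are read 5′ to 3′ on the strand of the collagen gene, the minus strand of WBcel235 in each, at II:8569492-8569592, IV:10085835-10085935, II:3502789-3502889 and V:9633495-9633595, and capitals mark TGGAGCGC.
col-38: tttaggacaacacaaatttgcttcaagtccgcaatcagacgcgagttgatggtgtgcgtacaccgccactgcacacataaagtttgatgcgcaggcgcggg
col-2: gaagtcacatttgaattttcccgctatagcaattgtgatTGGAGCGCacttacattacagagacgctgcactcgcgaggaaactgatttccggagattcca
col-71: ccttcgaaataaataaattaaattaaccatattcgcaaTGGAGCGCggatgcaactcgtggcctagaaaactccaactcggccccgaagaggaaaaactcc
col-147: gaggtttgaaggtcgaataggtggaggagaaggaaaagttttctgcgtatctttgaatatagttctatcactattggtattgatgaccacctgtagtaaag
None of these 4 held any of the 7 other strings that were searched on both strands and are named with their frequencies after the position profile. The string TGGAGCGC in the col-2 and col-71 sequences was noticed after they had been read. Within 50 bp of the summit TGGAGCGC stood at 76 of the 1895 IDR peaks (4.01%), the col-2 and col-71 peaks included. It also stood at 82 of the 18468 other pooled entries (0.444%). It was in 0 of the 175 collagen upstream sequences of 250 bp and in 237 of the 19985 of all protein-coding genes (1.19%). Those 250 bp end short of the col-2 and col-71 summits, 434 and 269 bp upstream, so they could not hold either copy.

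The other 3 IDR peaks lay farther from the collagen 5' end. The col-63 peak (I:8245352-8245691) had a pooled signal of 71.5 (rank 742), with 28.6 in replicate 1 (rank 1783) and 36.4 in replicate 2 (rank 443). Its summit was 559 bp upstream of col-63, in the 3' UTR of ceh-8, a homeobox gene, and 100 bp from the 5' end of the non-coding RNA gene ZK265.11. The col-185 peak (X:13511827-13512166) had a pooled signal of 68.0 (rank 837), with 40.8 in replicate 1 (rank 931) and 24.6 in replicate 2 (rank 978). Its summit was 900 bp upstream of col-185 inside a tRNA gene that RefSeq annotates as tRNA-Pro, and 15% of the 32-base words of this entry occur elsewhere in the genome. The col-8 peak (III:7021354-7021693) had a pooled signal of 52.6 (rank 1309), with 27.3 in replicate 1 (rank 1919) and 20.3 in replicate 2 (rank 1353), and its summit was 924 bp upstream of col-8 and within an intron of rfl-1, which encodes a subunit of the NEDD8-activating enzyme, 318 bp from the 5' end of rfl-1. How far the neighbouring genes and the repeated sequence account for these peaks was not tested.

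**Figure D2:**
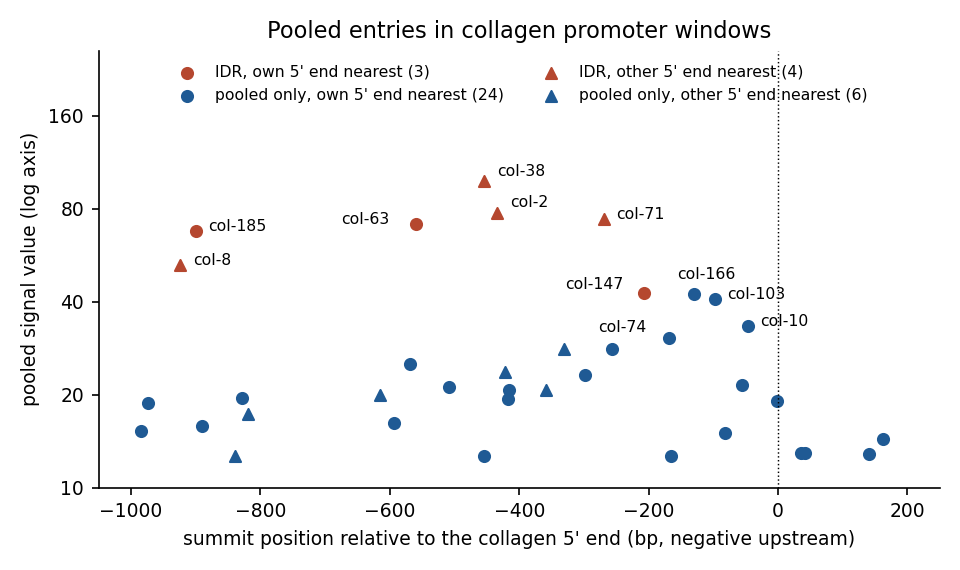
Pooled signal value (log axis) of the 37 pairs of a collagen gene and a pooled entry against the position of the summit from the gene's 5' end in bp. Circles mark pairs in which the collagen has the nearest protein-coding 5' end and triangles those in which another gene has; the IDR peaks (red) lie from 207 to 924 bp upstream, and col-166, col-103 and col-10 within 200 bp.

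Next in signal in the collagen promoter windows, below the lowest IDR peak, came 3 entries with summits within 200 bp of the 5' end. The col-166 entry (X:6279716-6280055) had a pooled signal of 42.4 (rank 1901), with 30.6 in replicate 1 (rank 1584) and 15.2 in replicate 2 (rank 2360), at a summit 130 bp upstream. The col-103 entry (IV:763606-763945) had a pooled signal of 40.9 (rank 2012), with 21.1 in replicate 1 (rank 3024) and 21.8 in replicate 2 (rank 1177), at a summit 98 bp upstream. The col-10 entry (V:9165184-9165523) had a pooled signal of 33.4 (rank 2761), with 29.1 in replicate 1 (rank 1732) and 8.56 in replicate 2 (rank 9880), at a summit 47 bp upstream. All 3 were intergenic, and no 5' end of any gene type was nearer. Of the 3, col-10 differed most in rank between the replicates. The col-103 window had a further pooled entry of signal 23.1 at 299 bp upstream, covered by the same entry in each replicate.

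The sequences around these summits are printed on the strand of the gene, 5′ to 3′ in WBcel235. They show which of the searched strings lie near the summits of entries outside the IDR list. They are X:6279836-6279936 (plus strand), IV:763726-763826 (minus) and V:9165308-9165404 (minus, ending just before the 5' end), and capitals mark GAGAGAG in col-103 and TATAAA in col-10.
col-166: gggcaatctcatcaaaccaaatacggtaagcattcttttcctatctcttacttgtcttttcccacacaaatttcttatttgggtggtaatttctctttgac
col-103: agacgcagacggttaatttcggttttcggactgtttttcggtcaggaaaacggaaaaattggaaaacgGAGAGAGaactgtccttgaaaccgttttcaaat
col-10: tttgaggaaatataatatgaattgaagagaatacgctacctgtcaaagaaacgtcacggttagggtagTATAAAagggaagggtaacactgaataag
The col-166 sequence held none of the strings searched.

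The next collagen genes by promoter signal were col-74, col-117, col-3, col-42, col-148, col-167 and col-140, all taken as cuticle collagens by name. The deposited −log10 q-value of their best entry fell from 1.71 (col-74) to 0.954 (col-42), 0.764 (col-148), 0.519 (col-167) and 0.496 (col-140). The highest value in the pooled list, which holds peaks and background, was 3.63. The col-74 entry (signal 30.6, rank 3188) lay 169 bp upstream of col-74 in a coding exon of gtap-1, with 20 in replicate 1 and 10.2 in replicate 2. A single entry (IV:8824282-8824621, signal 28.1, rank 3649) served both col-117, 257 bp away, and col-3, 331 bp away, with 23.7 in replicate 1 and 8.59 in replicate 2. The windows of col-117 and col-3 hold much repeated sequence, with up to 54.4% of their 32-base words found elsewhere in the genome, but 0% of those of the entry itself. The col-42 window had entries of signal 25.2 at 569 bp and 19.2 at 1 bp upstream, both overlapped in both replicates. The col-148 entry (23.8) was nearest to C12D8.21, 143 bp from its 5' end. The col-167 entry of signal 21.4, 55 bp upstream, and the col-140 entry of signal 21.2, 508 bp upstream, were overlapped in replicate 1 only.

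In all, 35 pooled entries fell in the windows of 32 collagen genes and gave 37 pairs of a gene and an entry. Their deposited −log10 q-values ran from 0.0212 to 3.63. An entry in both replicate lists overlapped 25 of the 35 (71.4%), beside 60.5% of the 6281 entries in promoter windows of any protein-coding gene. Of the other 10, 8 were overlapped in replicate 1 alone and 2 in replicate 2 alone. By position 22 were intergenic, 4 in coding exons, 3 in introns, 2 in 5' UTRs, 1 in a 3' UTR, 2 in exons of non-coding RNA genes and 1 in a tRNA gene. Of the pairs, 33 were upstream of the 5' end, 8 of them within 200 bp, and 4 downstream. In the 30 pairs without an IDR peak the collagen's own 5' end was the nearest protein-coding one in 24 (80%, beside 83.9% of 5930 such pairs of all genes) and the nearest of any type in 22 (73.3%, beside 74.9%).

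Collagen genes with a pooled entry had a median signal close to that of all genes with one. The median of the highest pooled promoter signal was 21.3 over the 32 collagen genes (quartiles 15.7 and 41.3, highest 98.8) and 21.8 over all 6565 protein-coding genes with an entry (quartiles 16 and 39.9, highest 688). Of the 32, 7 (21.9%) had an IDR peak, 16 (50%) had their best entry at ranks 1896 to 10181 and 9 (28.1%) at ranks 10182 to 20363, beside 23.3%, 44.9% and 31.8% of all genes with an entry. Over the 25 entries present in both replicates, the Spearman correlation of the replicates' signals was 0.654, beside 0.688 over 3799 promoter entries of all genes. These correlations describe entries that share libraries and the same control. In the windows of col-62, col-74 and col-103, pooled entries were overlapped by the same replicate entries, so some of the 25 pairs of signals repeat.

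**Figure D3:**
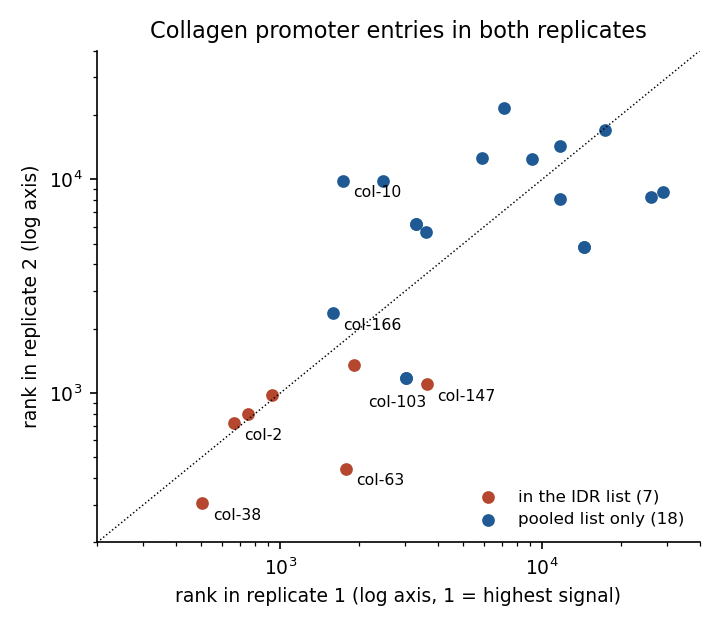
Rank by signal in replicate 1 against rank in replicate 2 (both log axes, 1 is the highest) of the 25 collagen promoter entries overlapped in both replicate lists; the dotted line marks equal ranks, and entries of col-62, col-74 or col-103 that share the same replicate entries coincide. The 7 IDR peaks rank from 504 to 3637 in replicate 1 and from 306 to 1353 in replicate 2, and col-10 ranks 1732 and 9880.

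Summits were not concentrated at collagen 5' ends in the way they were over all genes. In the 250 bp before the 5' end 9 collagen genes had a pooled summit (5.14%, interval 2.38 to 9.54%), beside 13.4% of all protein-coding genes. From 500 to 250 bp upstream there were 11 (6.29%, interval 3.18 to 11%), beside 8.55%. In the first 250 bp downstream 5 genes had one (2.86%, interval 0.934 to 6.54%), beside 4.99%. The share of all genes thus lay above the interval only in the first of these 3 bins. The highest collagen bin was 1250 to 1500 bp downstream, past the end of most collagen genes, whose median length is 1221 bp. There 13 genes had a summit (7.43%, interval 4.01 to 12.4%), beside 4.03%, which lay just inside the interval. In the IDR list 4 genes had a summit in that bin (2.29%, interval 0.626 to 5.75%), beside 0.270%, which lay below the interval. In the 250 bp before the 5' end 1 gene had an IDR summit (0.571%, interval 0.0145 to 3.14%), beside 3.64%, which lay above it. In the pooled list the share of all genes lay above the interval also from 1500 to 1250 bp upstream (1.71%, interval 0.355 to 4.93%, beside 5.27%). So it did from 750 to 1000 bp downstream (0%, up to 2.09%, beside 4.02%).

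**Figure D4:**
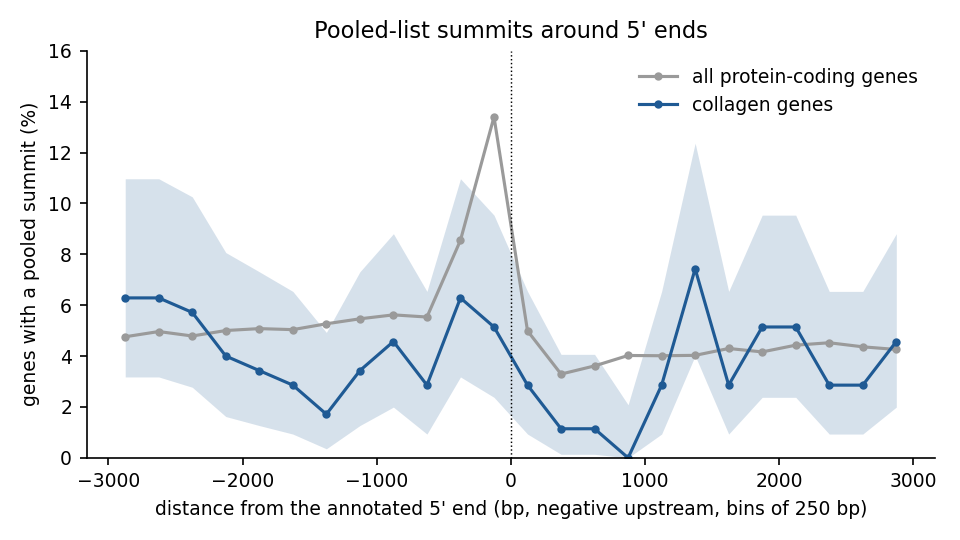
Percentage of genes with a pooled summit in bins of 250 bp by distance from the annotated 5' end, for collagen genes (blue; shading, 95% Clopper-Pearson interval, n = 175) and all protein-coding genes (grey). All genes reach 13.4% in the bin just upstream of the 5' end, where the collagen genes are at 5.14%.

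The distance to the nearest pooled summit had a median of 2814 bp over the collagen genes and 1774 bp over all protein-coding genes. The distance to the nearest IDR summit was alike, with medians of 21324 and 21812 bp. Inside the genes themselves 17 collagens (9.71%) held 19 pooled summits, or 0.0726 per kb, beside 28.2% of all protein-coding genes and 0.164 per kb. IDR summits lay inside 3 collagen genes (1.71%, 0.0115 per kb), beside 2.17% of all genes and 0.00784 per kb, and all 3 were outside the promoter window. That of col-85, 381 bp downstream of the 5' end, had a signal of 79.6 (rank 608), that of col-72, 475 bp downstream, had 50.2 (rank 1432), and that of col-99, 3903 bp downstream in a gene of 9946 bp, had 56.6 (rank 1155). The next closest were IDR summits downstream of the 5' ends of col-42 (1259 bp), col-181 (1331 bp) and sqt-2 (1336 bp).

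At 20 of the 175 collagen genes (11.4%), a protein-coding gene on the other strand had its 5' end within 1000 bp upstream. The share over all protein-coding genes was 17.7%. Non-coding genes were not counted as neighbours. Of these 20, 4 had an IDR summit (20%, interval 5.73 to 43.7%, beside 19.3% of all such genes) and 9 a pooled summit (45%, interval 23.1 to 68.5%, beside 48.8%). Of the 155 without such a neighbour, 3 had an IDR summit (1.94%, interval 0.401 to 5.55%, beside 5.14%) and 23 a pooled summit (14.8%, interval 9.64 to 21.4%, beside 29.4%). The pooled share of all genes lay above the collagen interval among the 155 genes with no divergent protein-coding neighbour. It lay inside the interval among the 20 with one, where so few genes make the interval wide. The 155 and the 20 were not tested against each other.

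By chromosome, the pooled share of collagen genes was below that of all protein-coding genes on 5 of 6. It was 26.1% of 23 genes on chromosome I (all genes 40.2%), 12.5% of 32 on II (27.7%), 13.6% of 44 on IV (31.3%), 18.2% of 33 on V (26.8%) and 13.3% of 30 on X (34.5%). On chromosome III it was 46.2% of 13 genes, beside 43.0%. Repeated sequence can hide peaks from short reads, and more than 10% of the 32-base words of the window occurred elsewhere in the genome at 16 collagen genes (9.14%), beside 14.2% of all genes. That held for 9.38% of the collagen genes with a pooled summit and for 9.09% of those without.

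The upstream sequences of the collagen genes were searched on both strands for 7 short strings in the 250 bp before the 5' end. The AP-1 site TGACTCA was found at 1 gene (0.571%, interval 0.0145 to 3.14%), col-135, which was in no list, beside 3.12% of all protein-coding genes. CACGTG, an E-box, was found at 0 of 175 (up to 2.09%), beside 4.94%. The GA repeat GAGAGAG was found at 17 (9.71%, interval 5.76 to 15.1%), beside 6.15%, and GGGCGG, a GC box, at 27 (15.4%, interval 10.4 to 21.6%), beside 6.94%. TGATAA was found at 51 (29.1%, beside 26.8%) and TGTTTAC, a forkhead string, at 9 (5.14%, beside 4.36%). TATAAA, added after the other strings had been counted, stood at 110 genes (62.9%, interval 55.2 to 70.0%), beside 35.2%. The shares of all genes lay outside the collagen interval for the E-box, the GC box and the TATA box. In 500 bp upstream they also lay outside it for TGATAA (collagens 56.6%, interval 48.9 to 64.0%, all genes 43.7%) and for TGACTCA (0.571%, interval up to 3.14%, all genes 5.45%). None of the 7 strings contains another.

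**Figure D5:**
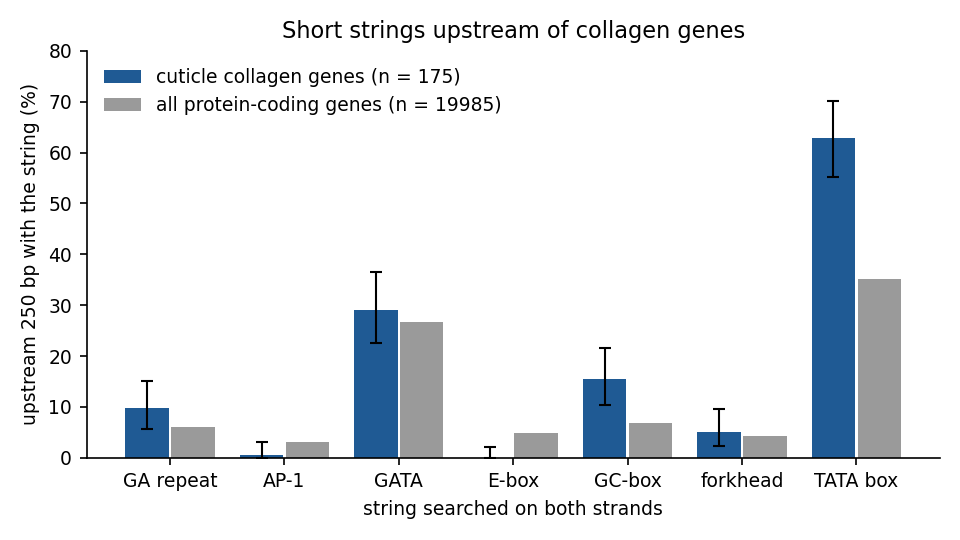
Percentage of genes with each of 7 short strings, on either strand, in the 250 bp upstream of the 5' end, for the 175 collagen genes (error bars, 95% Clopper-Pearson interval) and all 19985 protein-coding genes. The TATA-box string TATAAA stands at 62.9% of collagen genes and 35.2% of all genes, and the E-box string CACGTG at 0 and 4.94%.

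At the summits themselves each string stood at few collagen entries. Within 50 bp of the summit, TGATAA stood at 5 of the 35 collagen entries (14.3%), beside 11.1% of the 6281 promoter entries of all genes, and TATAAA at 4 (11.4%, beside 10.3%). GAGAGAG stood at 2 (5.71%, beside 6.18%), both of them entries of col-103. The AP-1 site, the E-box, the GC box and the forkhead string stood at 0 of 35, beside 2.12%, 2.39%, 3.09% and 2.34%. A matching string is a description of the sequence and does not show that a factor binds there.

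Genes that make, move or regulate cuticle collagen were read in the same windows, beside the 7.65% and 32.8% of all protein-coding genes in the IDR and pooled lists. Of 22 collagen-processing enzyme genes, 3 had an IDR summit (13.6%, interval 2.91 to 34.9%) and 8 a pooled one (36.4%, interval 17.2 to 59.3%). The 3 were pdi-3 (signal 96.8), pdi-6 (67.4) and pdi-2 (50.1), which encode protein disulfide isomerases, PDI-2 being also the partner subunit of the prolyl hydroxylases. The next was dpy-11 (33.9), a thioredoxin-like protein of the epidermis. The prolyl hydroxylase genes dpy-18 and phy-2 had no pooled summit.

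Of 8 genes of COPII export, 2 had an IDR summit (25%, interval 3.19 to 65.1%) and 6 a pooled one (75%, interval 34.9 to 96.8%). They were led by sec-24.1 (signal 109), a cargo-binding coat subunit, and sar-1 (101), the small GTPase that starts the coat, followed by sec-12 (36.2) and sec-31 (21.1). Of 13 moulting and epidermal regulators, 2 had an IDR summit (15.4%, interval 1.92 to 45.4%) and 5 a pooled one (38.5%, interval 13.9 to 68.4%), led by lin-14 (55.1), which times larval fates, and myrf-1 (52.0), a membrane-bound transcription factor, with lin-28 (20.2) and nhr-25 (15.7) next.

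Of 23 other genes of the cuticle and apical matrix, such as the cuticlins, 0 had an IDR summit (up to 14.8%) and 1 a pooled one, mlt-10 (signal 14.1; 4.35%, interval 0.110 to 21.9%), a share whose interval lay below that of all genes. Of 4 collagen genes outside the cuticle family, 0 had an IDR summit and 3 a pooled one, the type IV collagens emb-9 (23.4) and let-2 (15.9) and mec-5 (15), a collagen of touch receptor attachment. With 4 to 23 genes a list, the intervals are wide, and the lists were not tested against each other or against the cuticle collagens.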

How the data were processed

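ChIP-seq of eGFP-tagged FOS-1 was read from 4 lists of peaks in build ce11 (replicate 1, replicate 2, pooled and IDR); the ce10 lists were not used. Per the deposited text files, the alignments of a replicate and 1 shared control file gave its list, the alignments of both gave the pooled list, and these 3 lists gave the IDR list. What aligner, peak caller and thresholds were used was not given in the sources used here, and duplicate filtering likewise. The signal of each entry is the authors' deposited value of unstated scaling, and it ranked entries because the deposited −log10 q-value tops out at 3.63. The files hold no read counts, so depth and its precision are unknown.

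Summits were assigned to Ensembl release 115 genes on WBcel235 with code checked on simulated data. Shares carry 95% Clopper-Pearson intervals, which cover counting error only and treat genes as independent. Overlap meant 1 bp in common, nearest genes were taken by 5' end, and repeats were words of 32 bases found more than once in the genome. No test across conditions was possible with 1 group, and the replicates' spread is that of 2 biosamples of 1 strain. Sequences are from the RefSeq copy of WBcel235. Genes were named by rule: collagens with an IDR summit, the 10 others of highest pooled signal, all phenotype-named collagens, col-99, up to 4 genes of highest signal in each other list, the nearest neighbours of IDR summits and the 5 collagens nearest an IDR summit outside the window; col-17, col-55, col-135, dpy-18 and phy-2 were named after their values were seen. In each of 3 lists 1 symbol had no match in the annotation and was dropped. The collagens and all lists were chosen with earlier results of these data known. The tools were pandas 2.3.3, numpy 2.4.6, scipy 1.17.1 and matplotlib 3.10.9 under Python 3.11.15. Alternatives covered the window, the assignment rule, the signal tier, each replicate alone, overlapping windows, the col- genes alone, the overlap rule and the length of upstream sequence.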

Additional observations from a re-analysis of the deposited data

How the results depend on the processing

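Under all 23 alternatives of the 3 gene counts the collagen share stayed below that of all protein-coding genes under the same setting, and 4 of 31 alternatives moved a gene count by over 1.5 times or a string's share out of its interval. The all-gene share lay above the collagen interval in all 10 alternatives of the pooled count, but in 4 of 10 of the IDR count. With a window of 500 bp upstream to 100 bp downstream, the IDR count fell from 7 to 4 and the pooled count from 32 to 20, a narrower window by construction. Giving each summit only to the nearest 5' end of any gene type, an alternative chosen after seeing the data, gave 2 genes with an IDR summit, col-72 and col-103, neither among the 7; the cause was not tested. In 500 bp upstream, TGATAA stood at 56.6% of collagen genes and 43.7% of all genes, in a sequence longer by construction. The IDR and pooled lists both draw on the 2 replicates, so for either replicate alone its own list stood in for them. Its entries of highest signal, as many as the IDR list holds, gave 7 genes in replicate 1 and 8 in replicate 2. Its full list gave 44 in replicate 1 and 45 in replicate 2. These are the replicate counts already reported in the Results, not a separate check. No paired analysis was possible because all samples belong to a single group. Depth is unknown, so unlisted promoters cannot be told from promoters too thinly read.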
